A study of Bombyx mori with 4 samples.

Results

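The heat response of the silkworm variety HY was taken as the library of heated HY larvae set against the library of HY control larvae. These are 2 of the 4 libraries of the series, and the comparison covered the 2810 of 5558 gene models with at least 1 tag per 1000000 in 1 of the 2 libraries. By deep sequencing the series profiled midgut RNA of Bombyx mori larvae in their last instar, the fifth, on its day 2. HY heat and HY control are larvae of a variety described in the labels as sensitive to heat, with and without exposure to high temperature. The series also holds 932 heat and 932 control, the same conditions in a variety described as tolerant, and their values are given beside those of HY for single genes. The sources used here do not give the temperature, how long the exposure lasted, or how many larvae a library pooled. With a single library behind each group there is no replicate error, and a difference given here is one between 2 libraries.

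The larval midgut of the silkworm is a tube of absorptive, goblet, endocrine and stem cells that digests mulberry leaf. Its cells secrete lipases, proteases and glycosidases into the lumen, and they line it with the peritrophic matrix, a sheet of chitin and chitin-binding proteins. A proton pump, the V-ATPase, drives the high alkalinity of the gut. In animal cells, high temperature unfolds proteins and induces heat shock proteins, chaperones that hold, refold or hand over damaged proteins.

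Values are given in RPM, the tags of a gene per 1000000 tags of the library, with no correction for gene length, so levels are compared between libraries and not between genes. The libraries held 6005744 tags for HY heat and 5799074 tags for HY control. The listed gene models took 15% of the tags of HY heat and 11.6% of those of HY control. The remaining tags were not analysed here. The lowest value listed was 2 tags, so a gene listed at 0 can stand for 0 tags or 1 tag. Changes are log2 ratios of the value plus 1, HY heat over HY control, and low genes change more than such a ratio shows. A gene was called higher or lower when that ratio was at least 2-fold, a log2 ratio of 1. Square brackets hold an exact 95% interval for the same ratio in tags with nothing added, and it covers counting error only. For a low gene the whole interval can therefore lie farther from 0 than the printed ratio. In whole midgut, fewer cells of a type and less RNA per cell cannot be told apart.

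As a check of the tissue, transcripts of the gut were abundant in both HY libraries. The peritrophic membrane chitin binding protein gene BGIBMGA001491 stood at 5774 RPM in HY heat and 3129 RPM in HY control. The 1 silk gland marker gene was listed at 0 in both, and the 2 haemocyte marker genes summed to 2.67 RPM in HY heat and 0.69 RPM in HY control. Of 9 fat body marker genes (storage proteins, 30-kDa lipoproteins, vitellogenin and apolipophorins) 4 were listed at 0 in both, and the sum of all 9 was 35.5 RPM in HY heat and 36.7 RPM in HY control. The 17 sarcomere marker genes summed to 1174 RPM in HY heat, against 828 RPM in HY control. Above these sums lay the 19 models of the cuticle protein list, at 1489 RPM in HY heat and 3494 RPM in HY control. The part of tissue other than midgut in the cuticle transcripts was not tested.

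Of the 2810 genes, 397 were higher in HY heat (14.1%) and 129 were lower (4.59%). Over all genes the log2 ratio had a median of 0.34, close to the log2 ratio of 0.37 between the summed RPM of the listed models in the 2 libraries. Relative to that median, 127 genes were higher by 2-fold or more (4.52%) and 242 lower (8.61%), so 34.4% of the called genes were higher, against 75.5% before centring. By the stricter rule that the whole counting interval lie past 2-fold, 116 genes (4.13%) were higher and 54 (1.92%) lower. The upward shift was present at every level of expression examined. The median log2 ratio was 0.25 for 718 genes with a mean of 1 to 3 RPM over the 4 libraries, 0.33 for 799 genes at 3 to 10 RPM, 0.41 for 704 genes at 10 to 100 RPM and 0.28 for 181 genes at 100 RPM or more. In 932 the median log2 ratio of heat over control was 0.02. Of 42 gene lists with a gene above the floor, 29 had a median above 0 and 16 a median above 0.34, so for lists between these values the direction turns with the scaling, and list medians are to be read against both. Among the called genes, 96 of the 397 higher ones were listed at 0 in HY control, with at most 5.83 RPM in HY heat. Conversely, 42 of the 129 lower ones were listed at 0 in HY heat, with at most 9.48 RPM in HY control. With 1 added and a floor of 1 RPM, every gene above the floor listed at 0 in 1 library is called by construction. Counts in the lists below include such genes, and they are to be read beside the shares over all genes.

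**Figure D1:**
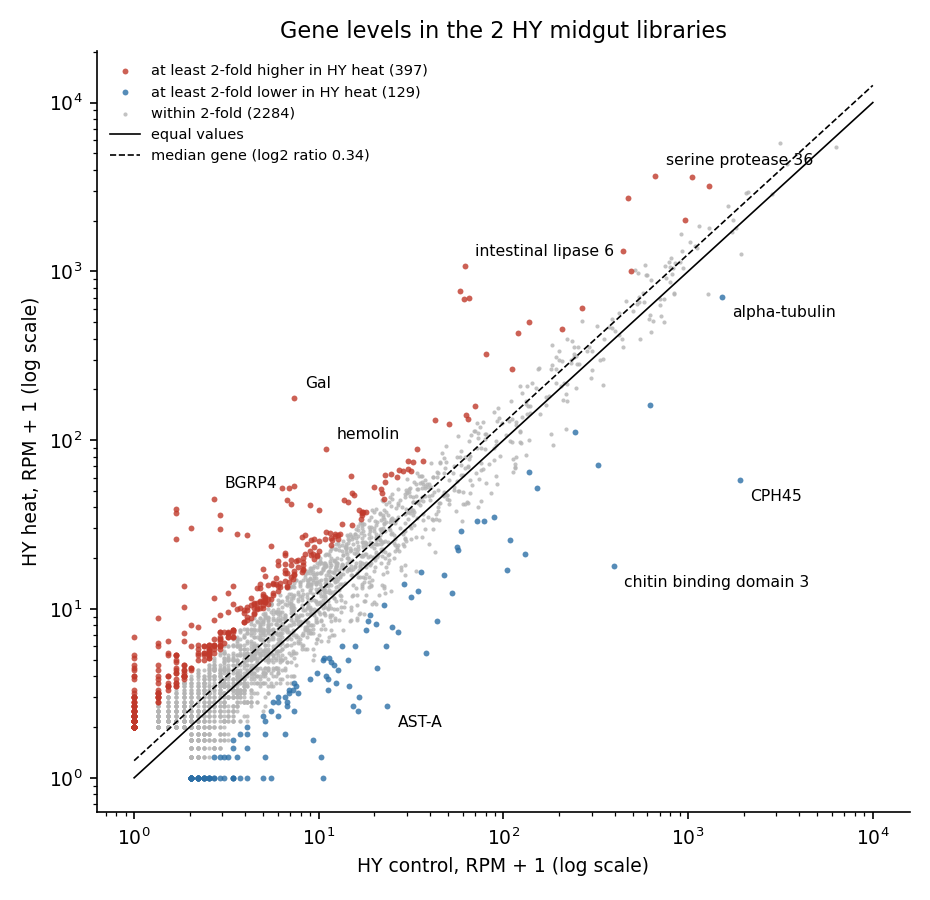
Level of each of the 2810 genes in HY heat (vertical, RPM + 1, log scale) against HY control (horizontal, RPM + 1, log scale), 1 point per gene, coloured by the 2-fold rule. The cloud of points follows the dashed line at the median log2 ratio of 0.34 rather than the line of equal values, and among genes of 10 RPM or more CPH45 lies farthest below it and beta-galactosidase (Gal) farthest above it.

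Heat shock proteins are the classical targets of heat, and the small ones bind unfolding proteins before the ATP-driven chaperones take over. Above the floor lay 6 genes for small heat shock proteins, of which 3 were higher in HY heat and none lower, the median log2 ratio being 0.97, against 0.34 over all genes. Hsp23.7 (BGIBMGA004515) stood at 12.65 RPM in HY heat and 2.41 RPM in HY control, with a log2 ratio of 2.00 [1.56 to 3.33]. Another gene annotated as a heat shock protein of that size class, BGIBMGA013545, stood at 5.16 RPM in HY heat and 1.21 RPM in HY control, and it was listed at 0 in both 932 libraries. Hsp19.9 (BGIBMGA004540) read 2.83 RPM in HY heat and was listed at 0 in HY control. The remaining small heat shock protein genes were within 2-fold. Among these Hsp21.4 (BGIBMGA000944) had the lowest ratio and the most tags, at 33.1 RPM in HY heat and 41.9 RPM in HY control. The list with Hsp21.4 summed to 72.1 RPM in HY heat and 58.8 RPM in HY control, a log2 ratio of 0.29, below the median of all genes. For scale, Hsp23.7 read 210.3 RPM in 932 heat and 12.9 RPM in 932 control.

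HSP70 proteins refold substrates with ATP, and the cognate form Hsc70-4 is made without stress. In the HSP70 family 2 of 5 genes were higher and none lower, against 14.1% and 4.59% of all genes. The median log2 ratio of these 5 genes was 0.67. Hsc70-4 (BGIBMGA002381) held more tags than any other gene of these families, at 946 RPM in HY heat and 596 RPM in HY control, a log2 ratio of 0.67 [0.61 to 0.73]. The higher members were heat shock protein 70-14 (BGIBMGA006574), with 15.3 RPM in HY heat and 5.52 RPM in HY control, and a second gene. Heat shock protein 70-p4 (BGIBMGA001635) was close to the floor, at 3.33 RPM in HY heat and 0.86 RPM in HY control. Heat shock protein 70-3 (BGIBMGA007950) went slightly the other way, at 10.3 RPM in HY heat and 12.2 RPM in HY control, within counting error [-0.76 to 0.27]. Relative to the median gene, none of the HSP70 genes was 2-fold higher.

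HSP90 chaperones mature kinases and receptors. Hsp90 (BGIBMGA004612) itself had 16.3 RPM in HY heat and 3.97 RPM in HY control, a log2 ratio of 1.80 [1.37 to 2.76], and it remained past 2-fold relative to the median gene (1.46). The other HSP90 genes lay near the shift of all genes. Heat shock protein 90 beta (BGIBMGA012753) read 162 RPM in HY heat and 132 RPM in HY control. The mitochondrial TRAP1 (BGIBMGA001241) read 23.3 RPM in HY heat and 18.6 RPM in HY control. Among the HSP60 and TCP-1 chaperonins, ring complexes that fold proteins in a cavity, 2 of 7 genes were higher, against 14.1% of all genes. The median log2 ratio of the chaperonins was -0.03, below that of all genes. None of them was 2-fold higher once centred on the median gene. Heat shock protein 60 (BGIBMGA007349), the mitochondrial chaperonin, stood at 5.16 RPM in HY heat and 1.55 RPM in HY control. The other higher chaperonin (BGIBMGA011508) read 1 RPM in HY heat and was listed at 0 in HY control, which alone makes the call. Chaperonin subunit 6a zeta (BGIBMGA013116), part of the cytosolic ring, was nearly level at 41.6 RPM in HY heat and 44.5 RPM in HY control.

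HSP40 (DnaJ) proteins deliver substrates to HSP70. Of 11 genes 3 were higher and none lower, against 14.1% and 4.59% of all genes, the list median being 0.25. Counted from the median gene, 1 was higher and 1 lower, and 7 of the 11 had a ratio below that of the median gene. DnaJ-2 (BGIBMGA012541) read 4.66 RPM in HY heat and 1.55 RPM in HY control. DnaJ-26 (BGIBMGA006645), with the most tags, read 42.5 RPM in HY heat and 35.5 RPM in HY control. DnaJ-20 (BGIBMGA002188) had the lowest ratio of the list, with 7.66 RPM in HY heat and 15 RPM in HY control [-1.52 to -0.44]. The other DnaJ genes lay below 5 RPM in HY heat, apart from DnaJ-19 (BGIBMGA009967) at 6.16 RPM in HY heat and 7.93 RPM in HY control. DnaJ-24 (BGIBMGA014120), among the higher ones, was listed at 0 in HY control, which alone makes the call. Among co-chaperones and prolyl isomerases 1 of 17 was higher and 1 lower, or 0 higher and 1 lower relative to the median gene. The higher gene was the BAG-domain protein Samui (BGIBMGA006976), known from silkworm embryos in the cold, at 4 RPM in HY heat and 1.38 RPM in HY control.

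**Figure D2:**
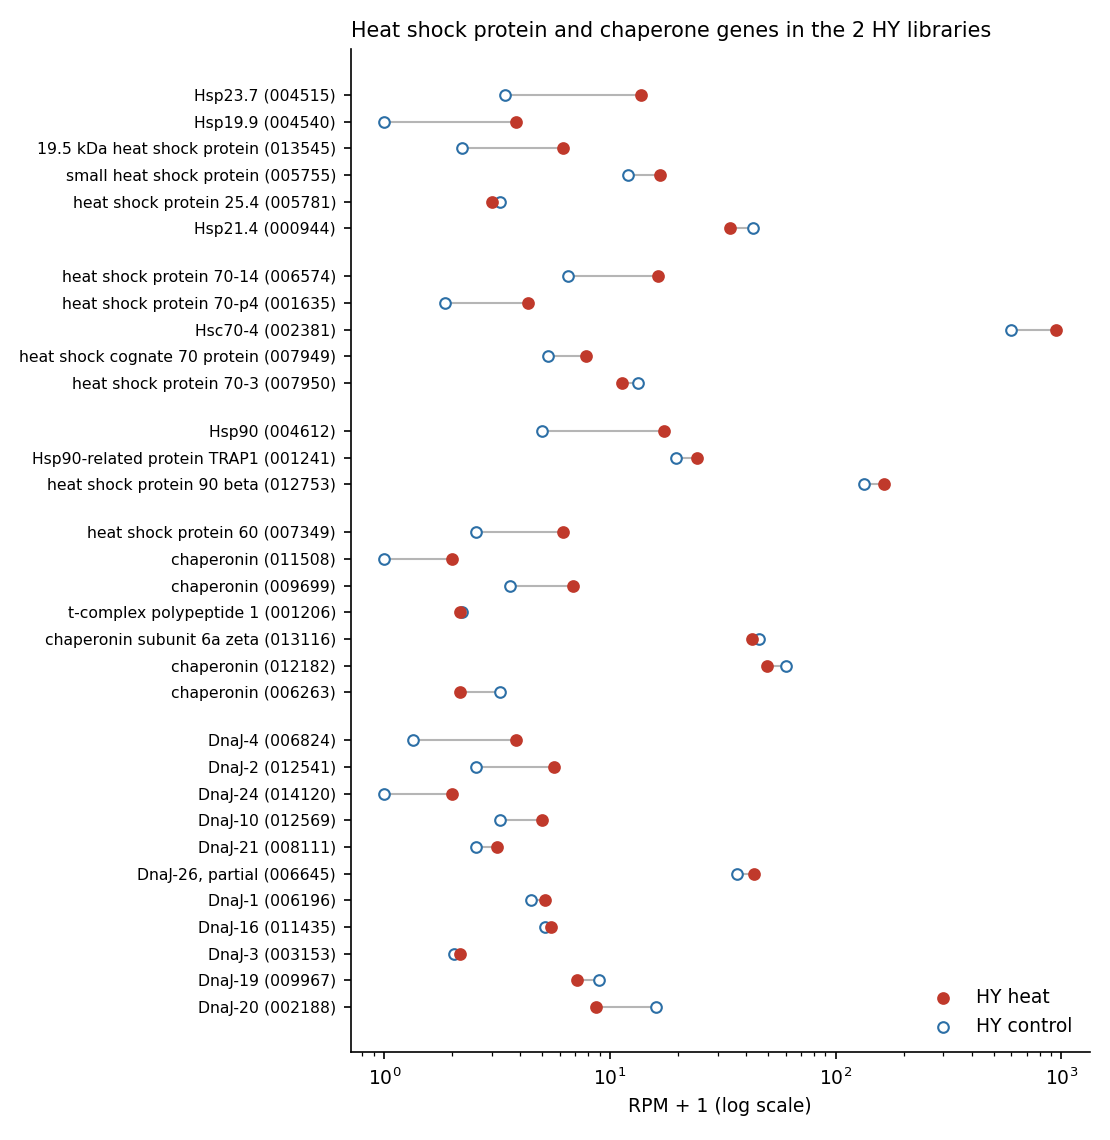
Levels of every heat shock protein and chaperonin gene above the floor in HY heat (filled) and HY control (open), in RPM + 1 on a log scale, grouped from top to bottom as small heat shock proteins, HSP70, HSP90, chaperonins and HSP40. Genes with a wide gap between the libraries lie at low RPM, and Hsc70-4 at the high end moved by a log2 ratio of 0.67.

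Members of the lipase, serine protease, peptidase and carbohydrate digestion lists, made by product name, held 8 of the 15 highest log2 ratios. These ratios were ranked among the 1023 genes of at least 10 RPM, and the same lists held 4 of the 15 lowest. The same lists held 49 of the 1023 genes (4.79%). Lipases of the gut split leaf glycerolipids, and 7 of 11 were higher in HY heat and 1 lower, the median log2 ratio being 2.53. Their summed level was 9222 RPM in HY heat and 3036 RPM in HY control. The triacylglycerol lipase BGIBMGA010400 stood at 2713 RPM in HY heat and 470.4 RPM in HY control, a log2 ratio of 2.53 [2.47 to 2.59]. The acidic lipase BGIBMGA010639 stood at 694 RPM in HY heat and 63.8 RPM in HY control, a log2 ratio of 3.42 [3.29 to 3.60]. Insect intestinal lipase 6 (BGIBMGA002669) had 1075 RPM in HY heat and 60.7 RPM in HY control, a log2 ratio of 4.12 [3.99 to 4.31]. In both 932 libraries these 3 genes stood above their level in HY control, and intestinal lipase 6, for one, read 2200.3 RPM in 932 heat and 1263 RPM in 932 control. Lipase-1 (BGIBMGA002670), a digestive juice lipase reported to act against nucleopolyhedrovirus, was within 2-fold in HY, at 2427 RPM in HY heat and 1635 RPM in HY control. The single lower member, the pancreatic lipase-like gene BGIBMGA011895, stood at 24.5 RPM in HY heat and 108 RPM in HY control. Pairs of similar gene models occur in this list, such as the neutral lipases BGIBMGA001507 and BGIBMGA001508, and tags shared between near-identical models could have been split by the counting.

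Serine proteases cut dietary protein. Of 22 genes 8 were higher and 3 lower, the median log2 ratio being 0.57, while the sum over the list was 6704 RPM in HY heat and 2036 RPM in HY control. The largest share of the sum came from serine protease 36 (BGIBMGA008514), at 3693 RPM in HY heat and 663 RPM in HY control, a log2 ratio of 2.48 [2.43 to 2.53]. The serine protease precursor BGIBMGA014427 stood at 324 RPM in HY heat and 79.3 RPM in HY control. The trypsin gene BGIBMGA001320 was the lowest of the list, with 20.15 RPM in HY heat, 130.2 RPM in HY control, 168 RPM in 932 heat and 534 RPM in 932 control. Centred on the median gene, the list had 7 higher and 4 lower.

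Exopeptidases trim the peptides that serine proteases release, and here the lower genes outnumbered the higher ones. Of 30 aminopeptidases, carboxypeptidases and other peptidases 4 were higher and 11 lower, the list median being -0.27. Relative to the median gene 3 were higher and 12 lower. Over all genes 14.1% were higher and 4.59% lower, or 4.52% and 8.61% relative to the median gene. The largest of the lower genes was the carboxypeptidase precursor BGIBMGA004830, at 161 RPM in HY heat and 619 RPM in HY control, a log2 ratio of -1.94 [-2.05 to -1.84]. A plasma glutamate carboxypeptidase-like gene (BGIBMGA001274) stood at 3.50 RPM in HY heat and 19.7 RPM in HY control. The brush border aminopeptidase N gene Apn4 (BGIBMGA008060), among the 20 genes with the highest RPM in HY, was almost level at 2015 RPM in HY heat and 1758 RPM in HY control. Of 13 genes in the carbohydrate digestion list 2 were higher and 2 lower, or 2 higher and 5 lower relative to the median gene. That list goes by product name and includes a glucosidase II beta subunit (BGIBMGA013633), within 2-fold, whose name gives no role in digestion. Beta-galactosidase (Gal, BGIBMGA006815) had the highest ratio of all ranked genes, with 176.5 RPM in HY heat, 6.38 RPM in HY control, 8.06 RPM in 932 heat and 70.4 RPM in 932 control. Alpha-amylase (Amy, BGIBMGA005240), which splits starch, was low in both HY libraries, at 3 RPM in HY heat and 0.52 RPM in HY control. The glucosidase precursor BGIBMGA003512 was on the lower side, at 10.8 RPM in HY heat and 30.7 RPM in HY control.

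Peritrophic matrix and chitin genes had the second highest list median, 1.22, with 8 of 15 higher and 2 lower, or 6 higher and 2 lower relative to the median gene. Intestinal mucin IIM1 (BGIBMGA001480) stood at 26.5 RPM in HY heat and 3.10 RPM in HY control, a log2 ratio of 2.74 [2.39 to 3.88]. Insect intestinal mucin 3 (BGIBMGA009641) stood at 5.49 RPM in HY heat and 0.86 RPM in HY control. The member with the most tags, the chitin binding protein BGIBMGA001491 given above, stayed within 2-fold (0.88). The chitin binding domain 3 gene BGIBMGA009067 had the lower ratio of the 2 lower members, with 16.98 RPM in HY heat, 395 RPM in HY control, 4.46 RPM in 932 heat and 0.65 RPM in 932 control. HY control was thus the one library of the 4 with a high level of that transcript.

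**Figure D3:**
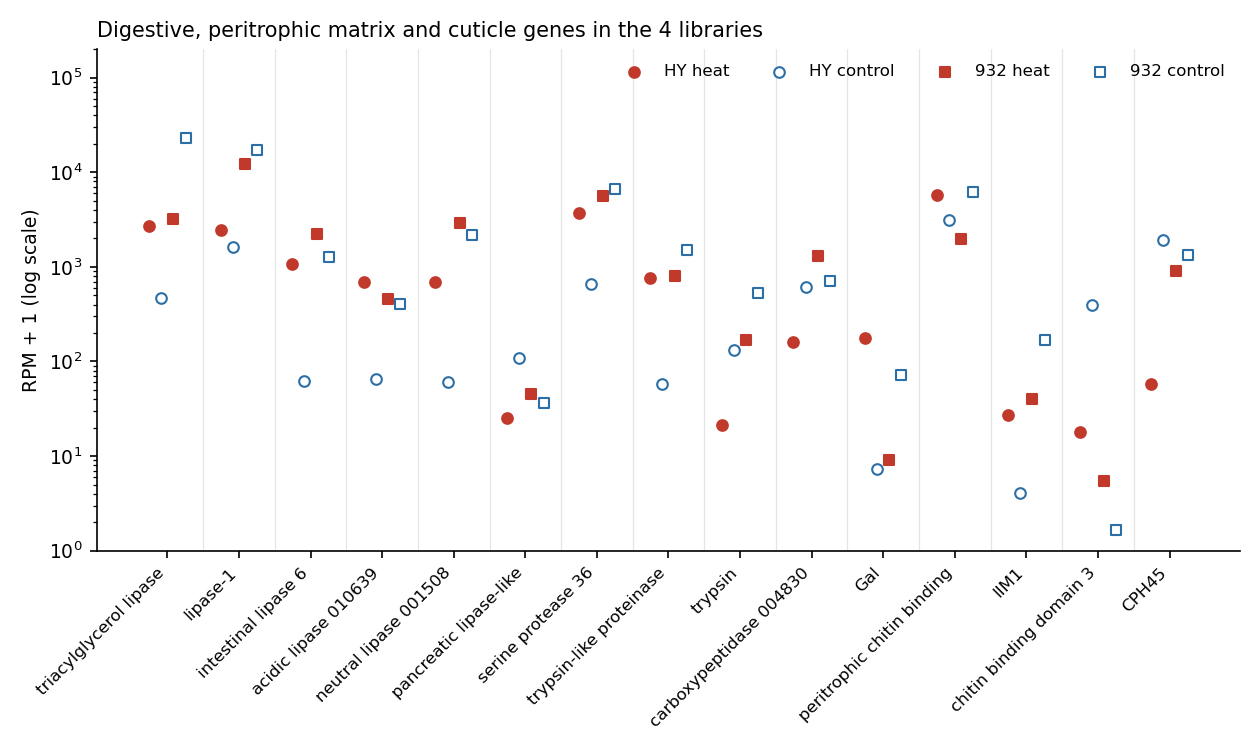
Levels of 15 digestive, peritrophic matrix and cuticle genes in RPM + 1 (vertical, log scale) in HY heat, HY control, 932 heat and 932 control, 1 library each. For the triacylglycerol lipase, intestinal lipase 6, the acidic and neutral lipases, serine protease 36, the trypsin-like proteinase and IIM1 the open circle of HY control is the lowest of the 4 marks.

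Cuticle proteins bind chitin in the exoskeleton and in the lining of the foregut and hindgut. The cuticle protein CPH45 (BGIBMGA004124) had the lowest ratio of all ranked genes, with 57.3 RPM in HY heat, 1902 RPM in HY control, 896 RPM in 932 heat and 1322 RPM in 932 control. The 2 models named CPH43 stayed level in HY. One of them (BGIBMGA013778) read 739 RPM in HY heat and 841 RPM in HY control. The other (BGIBMGA005302) read 682 RPM in HY heat and 743 RPM in HY control. Of the 6 cuticle genes 2 were lower and none higher.

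Of 42 transporter genes, 30 stayed within 2-fold (71.4%), against 2284 of all 2810 genes (81.3%). The V-ATPase list had a median log2 ratio of -0.33, or -0.66 relative to the median gene, with 1 of 11 lower and none higher. Subunit G (BGIBMGA013678), part of the stalk of the pump, made up most of the list's tags, at 498 RPM in HY heat and 742 RPM in HY control. Subunit E (BGIBMGA010247) read 40.6 RPM in HY heat and 61.04 RPM in HY control. In 932 the same list had 8 genes at least 2-fold lower. Among 4 amino acid transporters 1 was higher and 1 lower, or none higher and 1 lower relative to the median gene. The lower one, +nsd-2 (BGIBMGA007228), a transporter whose loss makes silkworms resistant to a densovirus, stood at 15.98 RPM in HY heat and 103 RPM in HY control, a log2 ratio of -2.62 [-3.02 to -2.38]. Of 24 further ion and solute transporters 6 were higher and 2 lower, among the higher ones the ATP-binding cassette sub-family A gene BGIBMGA007218, at 17.5 RPM in HY heat and 5.52 RPM in HY control. The median of these 24 was 0.12, below the 0.34 of all genes, and centred on the median gene 1 was higher and 2 were lower.

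The counts in the energy metabolism lists stand against 14.1% higher and 4.59% lower among all 2810 genes. None of 40 respiratory chain and ATP synthase genes passed 2-fold in either direction, and their median was 0.05, or -0.29 relative to the median gene. Cytochrome c (BGIBMGA009012), the mobile electron carrier, had the lowest ratio, with 39.5 RPM in HY heat and 71.4 RPM in HY control. In glycolysis, citrate cycle and glycogen metabolism 2 of 25 genes were lower and none higher, the list median being -0.11. These were cytosolic malate dehydrogenase (BGIBMGA010423), at 6.49 RPM in HY heat and 16.9 RPM in HY control, and lactate dehydrogenase. Lactate dehydrogenase (Ldh, BGIBMGA012336) stood at 4.16 RPM in HY heat and 9.66 RPM in HY control, while in 932 it read 15.8 RPM in 932 heat and 3.75 RPM in 932 control. In fatty acid, acyl-CoA and sterol metabolism 3 of 22 genes were higher and 2 lower. Counted from the median gene, the lower genes were 4 in the respiratory list, 6 in the glycolysis list and 4 in the fatty acid list, where 1 was higher. The acyl-CoA binding protein gene BGIBMGA002905, among the 20 genes with the highest RPM in HY, read 5445 RPM in HY heat and 6315 RPM in HY control. A desaturase (BGIBMGA010611), of the family that puts double bonds into fatty acids, stood at 15.5 RPM in HY heat and 34.8 RPM in HY control. The enzyme 24-dehydrocholesterol reductase (BGIBMGA005735), which insects use to turn plant sterols into cholesterol, stood at 47.6 RPM in HY heat and 20.9 RPM in HY control.

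Protein synthesis genes followed the shift of all genes, with the mitochondrial ribosome above it. The 67 cytosolic ribosomal protein genes had a median log2 ratio of 0.29, and 1 of them passed 2-fold. That gene was RpL35A (BGIBMGA002164), at 2012 RPM in HY heat and 959 RPM in HY control. RpS12 (BGIBMGA004374) had the lowest ratio of the list, within 2-fold, at 63.6 RPM in HY heat and 111 RPM in HY control. RpL10 (BGIBMGA002811) was also lower by less than 2-fold, at 1262 RPM in HY heat and 1934 RPM in HY control, and it was the only one of the 20 genes with the highest RPM that was at least 1.5-fold lower. Of 27 mitochondrial ribosomal protein genes 6 were higher and none lower, and the median of the 27 was 0.68, or 0.34 relative to the median gene. Of the higher ones, mRpS25 (BGIBMGA010819) and a partial S22 (BGIBMGA006722) were listed at 0 in HY control, which alone makes the call. Subunit L14 (BGIBMGA008301) had the most tags of the higher ones, at 51.8 RPM in HY heat and 18.8 RPM in HY control. In 932 heat L14 was listed at 0, and in 932 control it read 0.49 RPM. Relative to the median gene, 1 of the 27 was at least 2-fold higher.

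Ribosome assembly and RNA processing genes had shares of higher genes below or near the 14.1% of all genes. Of 19 ribosome biogenesis genes 2 were higher, both above 10 RPM in HY heat, and relative to the median gene none was higher and 1 was lower. Nucleolar GTP-binding protein 1 (BGIBMGA003221) stood at 264 RPM in HY heat and 110.0 RPM in HY control. The U3 snoRNP protein IMP4 (BGIBMGA010745) had 15.3 RPM in HY heat and 5.69 RPM in HY control. In the translation factor and tRNA synthetase list 5 of 51 were higher and 1 lower, or none higher and 3 lower relative to the median gene. The lower gene was the cap-binding factor eIF4E-1 (BGIBMGA012675), with 27.97 RPM in HY heat and 58.1 RPM in HY control. In the splicing and RNA-binding list 7 of 48 were higher and 2 lower, or 3 higher and 4 lower relative to the median gene. The putative snRNP assembly factor BGIBMGA007676 led them, at 37.6 RPM in HY heat and 8.97 RPM in HY control, a log2 ratio of 1.95 [1.63 to 2.53]. A core snRNP protein (BGIBMGA008493) stood at 130.0 RPM in HY heat and 41.6 RPM in HY control. Both of these snRNP genes were also higher in 932, where the core protein read 118 RPM in 932 heat and 29.5 RPM in 932 control.

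**Figure D4:**
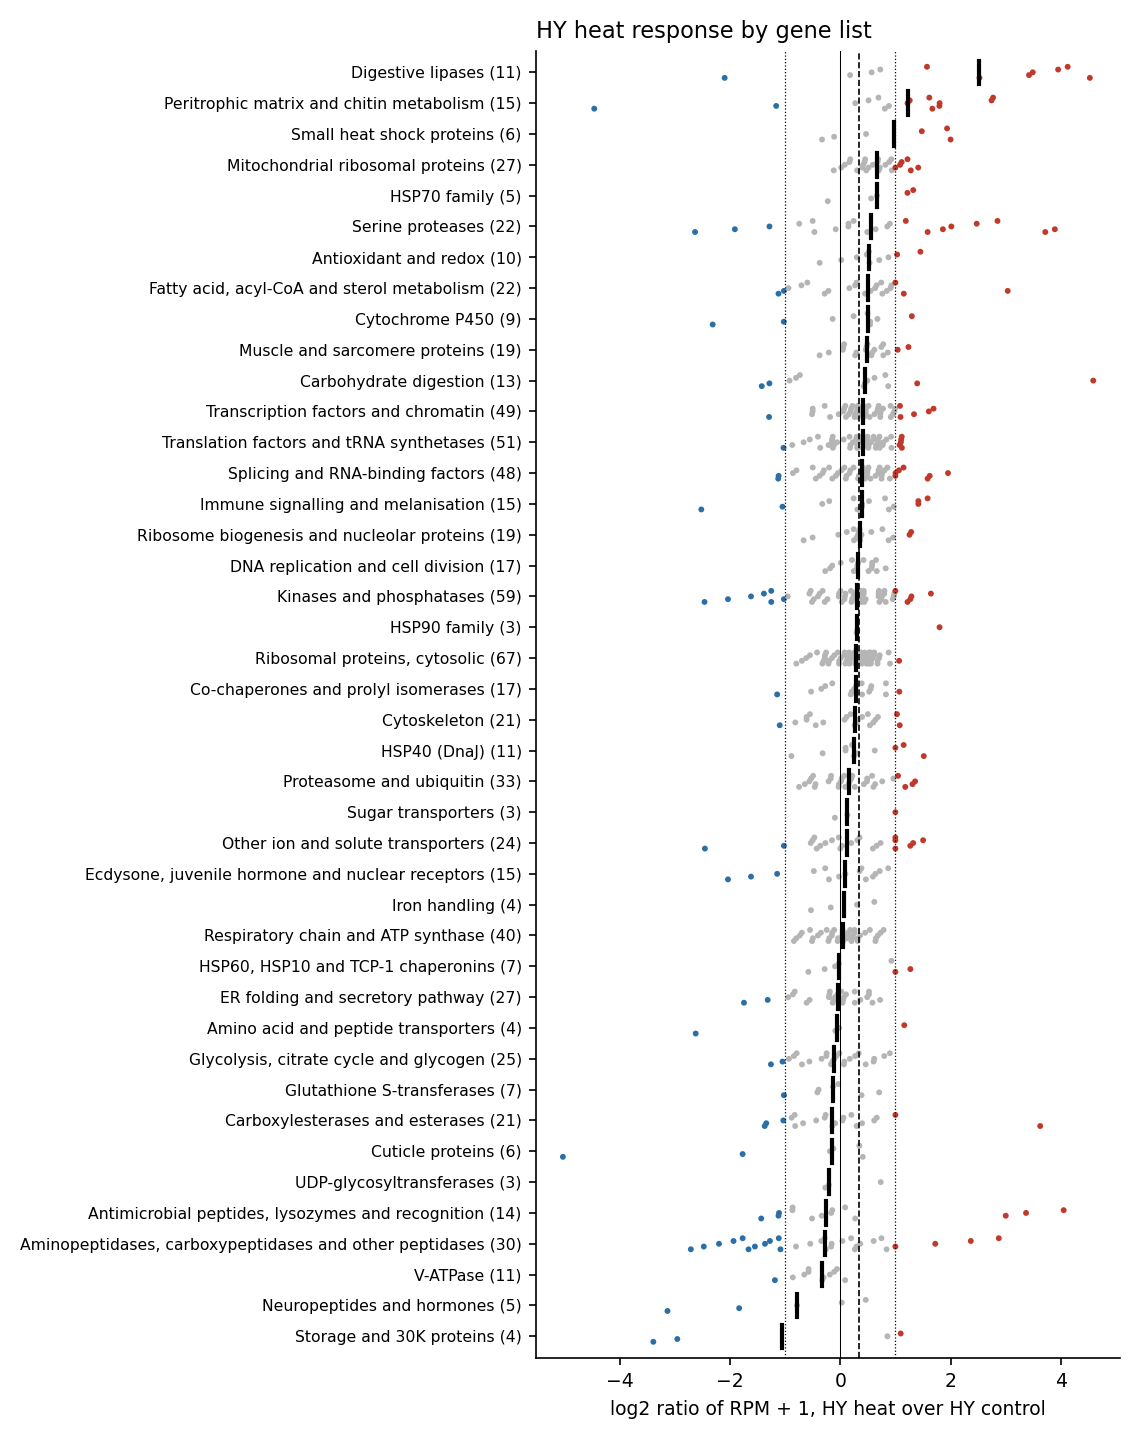
Log2 ratio of RPM + 1, HY heat over HY control (horizontal), for each gene above the floor in the lists with at least 3 such genes (number in brackets), with 1 point per gene, red at least 2-fold higher and blue at least 2-fold lower. Black bars are list medians, dotted lines mark 2-fold, and the dashed line is the median of all genes, 0.34. Digestive lipases and peritrophic matrix genes have the highest medians, and the lowest medians rest on 4 and 5 genes.

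Damaged proteins that are not refolded are tagged with ubiquitin and degraded. In the proteasome and ubiquitin list 4 of 33 genes were higher and none lower, the list median being 0.15, or -0.18 relative to the median gene, from which 1 gene was 2-fold higher and 1 lower. Polyubiquitin (BGIBMGA001549) was within 2-fold, at 338 RPM in HY heat and 199 RPM in HY control [0.66 to 0.87]. A putative E3 ubiquitin ligase (BGIBMGA004381), an enzyme that chooses substrates, stood at 21.15 RPM in HY heat and 7.93 RPM in HY control. In the endoplasmic reticulum and secretory list 2 of 27 were lower and none higher, the list median being -0.05. Counted from the median gene, 5 were lower. The genes lower without centring were the lectin chaperone calreticulin (BGIBMGA000475), at 2.33 RPM in HY heat and 10.2 RPM in HY control, and a coatomer subunit. That subunit (COPB2, BGIBMGA003892), part of the coat of transport vesicles, stood at 7.16 RPM in HY heat and 19.3 RPM in HY control.

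The counts in the detoxification, antioxidant and iron lists stand against 14.1% higher and 4.59% lower among all 2810 genes. Relative to the median gene those shares were 4.52% and 8.61%, and several of these lists are short. Of 9 cytochrome P450 genes 1 was higher and 2 lower, or none higher and 2 lower relative to the median gene. The gene higher without centring was Cyp9a22 (BGIBMGA003957), at 65.9 RPM in HY heat and 26.2 RPM in HY control. The lower one with the most tags was a gene named P450 333B11 (BGIBMGA005266), at 13.15 RPM in HY heat and 27.8 RPM in HY control. Another model of that name (BGIBMGA001276) was within 2-fold on the higher side, at 11.99 RPM in HY heat and 7.93 RPM in HY control. The other lower P450 (BGIBMGA002272) was listed at 0 in HY heat, which alone makes the call. None of 3 UDP-glycosyltransferases passed 2-fold, and of 7 glutathione S-transferases 1 was lower and none higher. The lower transferase, GSTe1 (BGIBMGA001051), was listed at 0 in HY heat and read 1.03 RPM in HY control, so its call rests on that 0. The epsilon transferase GSTe2 (BGIBMGA002279) read 22.6 RPM in HY heat and 17.1 RPM in HY control, and it was listed at 0 in both 932 libraries. Of 21 carboxylesterases 2 were higher and 3 lower, or 1 higher and 7 lower relative to the median gene. Integument esterase 2 (ie2, BGIBMGA009544) was among the highest ratios of all ranked genes, with 34.8 RPM in HY heat and 1.90 RPM in HY control. On the lower side the esterase CCE006d (BGIBMGA000875) stood at 21.3 RPM in HY heat and 55.5 RPM in HY control. In the antioxidant list 2 of 10 were higher and none lower, and 1 was higher relative to the median gene. Thioredoxin peroxidase (BGIBMGA000064), which reduces hydrogen peroxide, stood at 61.3 RPM in HY heat and 21.7 RPM in HY control, a log2 ratio of 1.45 [1.20 to 1.80]. The 4 iron-handling genes, ferritins and transferrins, were all within 2-fold.

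Among all 2810 genes 14.1% were higher and 4.59% lower, or 4.52% and 8.61% relative to the median gene. The immune lists are short beside that. Of 14 antimicrobial peptide, lysozyme and recognition genes 3 were higher and 3 lower, the list median being -0.25. After centring, 3 genes passed 2-fold upwards and 5 downwards. Hemolin (BGIBMGA008736), an immunoglobulin-type protein of moths that binds bacteria, stood at 87.1 RPM in HY heat and 10 RPM in HY control, a log2 ratio of 3.00 [2.73 to 3.54]. In 932 hemolin was near the floor, at 0.51 RPM in 932 heat and listed at 0 in 932 control. Lebocin-3 (Leb3, BGIBMGA006775), an antibacterial peptide, read 28.97 RPM in HY heat and 1.90 RPM in HY control, and it was listed at 0 in both 932 libraries. The recognition gene BGRP4 (BGIBMGA000353), whose product binds fungal glucan, stood at 44.1 RPM in HY heat and 1.72 RPM in HY control. On the lower side was the peptidoglycan recognition protein PGRP-S1 (BGIBMGA008038), at 32.1 RPM in HY heat and 70.5 RPM in HY control. Of the signalling and melanisation genes 3 of 15 were higher and 2 lower. The higher ones were a toll receptor (BGIBMGA014370, 2 RPM in HY heat), hemocytin (BGIBMGA006692, 1.67 RPM) and serpin-13 (BGIBMGA002368, 1.67 RPM). Each was listed at 0 in HY control, which alone makes the call. The lower genes are both part of NF-kappa-B signalling. Rel (BGIBMGA014594), a transcription factor that turns on antimicrobial peptide genes, stood at 1.67 RPM in HY heat and 14.3 RPM in HY control, a log2 ratio of -2.52 [-4.22 to -2.15]. Cactus (BGIBMGA005834), its family's cytoplasmic inhibitor, stood at 8.16 RPM in HY heat and 17.9 RPM in HY control, a log2 ratio of -1.05 [-1.66 to -0.63].

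Of 5 neuropeptide genes 2 were lower and none higher, or 3 lower and none higher relative to the median gene. Over all 2810 genes 4.59% were lower and 14.1% higher, and a list of 5 genes is short. Allatostatin A (AST-A, BGIBMGA014377), made by gut endocrine cells and known in cockroaches to block juvenile hormone synthesis and gut contraction, stood at 1.67 RPM in HY heat and 22.4 RPM in HY control, a log2 ratio of -3.13 [-4.84 to -2.83]. Allatotropin (BGIBMGA011850), a peptide first known for raising juvenile hormone synthesis in a moth, stood at 0.83 RPM in HY heat and 5.52 RPM in HY control. Neither peptide was above 1 RPM in 932: AST-A read 0.86 RPM in 932 heat and was listed at 0 in 932 control. Allatostatin C (AST-C, BGIBMGA005369) stayed within 2-fold, at 50.8 RPM in HY heat and 36.6 RPM in HY control. The 7 endocrine and neural marker genes, which include AST-A and allatotropin, summed to 58.8 RPM in HY heat and 75.9 RPM in HY control. AST-A alone fell by more than that sum did. Of the other markers AST-C was higher in HY heat, and diuretic hormone 31 (BGIBMGA011588) was lower, at 5.49 RPM against 10.2 RPM in HY control. In the ecdysone and juvenile hormone list 3 of 15 were lower and none higher. The lower ones were each listed at 0 in HY heat, which alone makes the call. One was juvenile hormone diol kinase (Jhdk, BGIBMGA008813), an enzyme of hormone breakdown, with 2.07 RPM in HY control.

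Of 4 storage protein, 30-kDa lipoprotein and lipophorin genes above the floor 1 was higher and 2 were lower. Relative to the median gene none was higher and 2 were lower. All 4 are genes of the fat body, a tissue next to the gut. Sex-specific storage protein 2 (Sp2, BGIBMGA009028) read 0.33 RPM in HY heat, 9.31 RPM in HY control, 8.58 RPM in 932 heat and 1.47 RPM in 932 control. The 30-kDa lipoprotein Lp-c6 (BGIBMGA004394) was listed at 0 in HY heat and in 932 control and read 9.48 RPM in HY control and 10.5 RPM in 932 heat. Both transcripts thus stood high in the same pair of libraries, HY control and 932 heat. Apolipophorin III (BGIBMGA013108), a lipid carrier of the blood that the fat body secretes, did not share that pattern, with 25.1 RPM in HY heat, 13.45 RPM in HY control, 23.2 RPM in 932 heat and 23.1 RPM in 932 control. The part of fat body RNA in the HY difference was not tested.

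The next 5 lists cover muscle, cytoskeleton, transcription and chromatin, kinases and phosphatases, and cell division. Of their genes 86.1% lay within 2-fold, against 81.3% of all genes, a gene in more than 1 list being counted in each. The muscle and sarcomere list had a median of 0.49, with 2 of 19 higher and none lower, and no muscle gene passed 2-fold relative to the median gene. Muscle LIM protein (BGIBMGA001202) read 398 RPM in HY heat and 219 RPM in HY control. The part of gut muscle in the HY difference was not tested. In the cytoskeleton list 2 of 21 were higher and 1 lower, or none higher and 2 lower relative to the median gene. Alpha-tubulin (BGIBMGA013413), the microtubule subunit, was the gene lower without centring, at 707 RPM in HY heat and 1515 RPM in HY control, a log2 ratio of -1.10 [-1.15 to -1.05], and it also read 837 RPM in 932 heat against 1728 RPM in 932 control. In the transcription factor and chromatin list 5 of 49 were higher and 1 lower, the list median being 0.42. After centring, 2 genes passed 2-fold upwards and 1 downwards. Of 59 kinases and phosphatases 5 were higher and 7 lower, or 1 higher and 8 lower relative to the median gene. The kinase and phosphatase list goes by product name and also holds metabolic enzymes. One of these is adenylate kinase 2 (adk2, BGIBMGA002594), which balances adenine nucleotides, at 5 RPM in HY heat and 14.7 RPM in HY control. None of 17 DNA replication and cell division genes passed 2-fold.

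Across the 1023 genes with at least 10 RPM in 1 HY library, the 15 highest log2 ratios ran between 2.95 and 4.59, and the 15 lowest between -5.03 and -2.06. Those not yet named include L-asparaginase (BGIBMGA007025), which hydrolyses asparagine, at 4.50 RPM in HY heat and 36.9 RPM in HY control. Myo-inositol oxygenase (BGIBMGA005786), which breaks down inositol, stood at 11.5 RPM in HY heat, 51.7 RPM in HY control, 5.66 RPM in 932 heat and 3.91 RPM in 932 control. A fatty acid binding protein (BGIBMGA012890) stood at 51.1 RPM in HY heat and 5.35 RPM in HY control. Of the 20 genes with the highest RPM in HY 8 were at least 1.5-fold higher and 1 lower. One of the higher ones was Chbp (BGIBMGA004806), whose product binds chlorophyllide from the leaf in the gut juice, at 3194 RPM in HY heat, 1288 RPM in HY control, 916 RPM in 932 heat and 1263.5 RPM in 932 control.

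The 4 libraries were also ranked for each gene. Of the 397 higher genes, HY heat was the highest of the 4 libraries for 306 (77.1%), against 1336 of all 2810 genes (47.5%). HY control was the lowest of the 4 for 210 of the 397 (52.9%), against 665 of all genes (23.7%). Among the 15 highest ratios, HY heat was the highest library for 6 and HY control the lowest for 12. Of the 129 lower genes, HY heat was the lowest of the 4 libraries for 82 (63.6%), against 406 of all genes (14.4%). HY control was the highest for 72 of the 129 (55.8%), against 408 of all genes (14.5%). Choosing genes by the ratio of the HY libraries itself raises each of these shares, so they are given as a description.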

How the data were processed

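Midgut RNA was extracted with Trizol and sequenced after Illumina library preparation, per the labels' protocols. No aligner, counting tool or gene-model build is given in the sources used here. The deposited table's own header names its unit TPM (normalized). Its values behave as RPM made by the authors with no length correction: 100% of values were whole numbers of tags within 0.0051 RPM at 1 total per library, which also gave the tag numbers. Product names are those of the deposited best protein hit, often of another insect. RefSeq symbols (assembly ASM3026992v2) came through the hit's accession. Ratios were log2 of RPM plus 1, with a floor of 1 RPM in 1 HY library. With 1 library per group there is no test or p-value. Exact 95% intervals (Clopper-Pearson) came from tag numbers.

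The members, the 43 gene lists (product-name patterns, trimmed after values were seen) and the comparison were chosen with earlier results of these data known. Genes named were the 15 highest and 15 lowest ratios at 10 RPM or more, the 20 most abundant, up to 6 members per list with the greatest change, and every heat shock gene. Genes without a product name were not named. Silk proteins had no gene above the floor, and sugar transporters had 1 of 3 higher, or none relative to the median gene. The script was tested on simulated data. The software was scipy 1.17.1, pandas 2.3.3, numpy 2.4.6 and matplotlib 3.10.9 under Python 3.11.15.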

Additional observations from a re-analysis of the deposited data

Results flagged for a closer look

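Of the 263 genes that the naming rule selected, 11 were past 2-fold in opposite directions in the 2 varieties with at least 10 RPM in 1 library of each, and 9 of these have a product name. The naming rule chose genes partly for a large change in HY. Among all 786 genes with at least 10 RPM in 1 library of each variety, 18 (2.29%) were past 2-fold in opposite directions, against 11 of the 116 selected genes that meet the same minimum. With 1 library per group, the difference between the varieties was not tested. Higher in HY heat and lower in 932 heat were the following. Beta-galactosidase (Gal, BGIBMGA006815) had a log2 ratio of 4.59 in HY and -2.98 in 932, with 176.5 RPM in HY heat, 6.38 in HY control, 8.06 in 932 heat and 70.4 in 932 control. BGRP4 (BGIBMGA000353) had a log2 ratio of 4.05 in HY and -4.29 in 932, with 44.1 RPM in HY heat, 1.72 in HY control, 15.4 in 932 heat and 321 in 932 control. A silk gland derived serine protease (BGIBMGA004445) had a log2 ratio of 3.89 in HY and -1.06 in 932, with 29.1 RPM in HY heat, 1.03 in HY control, 43.9 in 932 heat and 92.4 in 932 control. The fatty acid binding protein (BGIBMGA012890) had a log2 ratio of 3.04 in HY and -1.36 in 932, with 51.1 RPM in HY heat, 5.35 in HY control, 7.55 in 932 heat and 21.01 in 932 control. Intestinal mucin IIM1 (BGIBMGA001480) had a log2 ratio of 2.74 in HY and -2.08 in 932, with 26.5 RPM in HY heat, 3.10 in HY control, 38.95 in 932 heat and 168 in 932 control. The triacylglycerol lipase (BGIBMGA010400) had a log2 ratio of 2.53 in HY and -2.82 in 932, with 2713 RPM in HY heat, 470.4 in HY control, 3229 in 932 heat and 22885 in 932 control. Lower in HY heat and higher in 932 heat were PGRP-S1, a P450 and a phosphatase. A putative venom acid phosphatase (BGIBMGA006176) had a log2 ratio of -2.46 in HY and 1.76 in 932, with 2 RPM in HY heat, 15.5 in HY control, 10.1 in 932 heat and 2.28 in 932 control. PGRP-S1 (BGIBMGA008038) had a log2 ratio of -1.11 in HY and 1.11 in 932, with 32.1 RPM in HY heat, 70.5 in HY control, 33.8 in 932 heat and 15.15 in 932 control. The P450 333B11 model BGIBMGA005266 had a log2 ratio of -1.02 in HY and 1.76 in 932. It read 13.15 RPM in HY heat, 27.8 in HY control, 45.98 in 932 heat and 12.9 in 932 control. Another model of that name (BGIBMGA001276) was within 2-fold in each variety, with log2 ratios of 0.54 in HY and -0.09 in 932.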

How the results depend on the processing

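The numbers of higher and lower HY genes depended on scaling, floor and fold. Against 397 higher and 129 lower genes, there were 650 and 209 with 0.1 added in place of 1, 56 and 26 with 10 added, 155 and 50 with a floor of 10 RPM, 42 and 21 at 4-fold, and 116 and 54 with whole counting intervals beyond 2-fold. Scaling changed the balance: 187 and 205 with median-of-ratios size factors, 219 and 179 when totals left out the 20 most abundant genes, and 184 and 206 with the sum of the listed models as the total, so 47.2% of called genes were higher there, against 75.5%. Ratios of tags (0.5 added, at least 10 in 1 library) gave 488 and 141. The last pair of alternatives was added after the data had been seen. Centred on the median gene, the 127 higher and 242 lower genes became 343 and 380 with 0.1 added, 43 and 34 with 10 added, 58 and 106 with the floor of 10 RPM, 28 and 33 at 4-fold, 67 and 86 by whole intervals, and 245 and 273 by tag numbers. With no floor the numbers were 397 and 129 uncentred and 145 and 280 centred. The storage protein list median of -1.05 was 0.86 with the floor of 10 RPM, where only apolipophorin III of its 4 genes remained. That value is thus the ratio of a single gene. All 142 named genes past 2-fold kept their sign under every alternative run, which the choice of these genes largely fixed. Another added value, floor or fold cannot turn the sign of a ratio, and the rescalings shifted ratios by less than 2-fold. The kept signs are therefore no support for these genes. No paired analysis was possible because each group holds 1 library, and for the same reason no replicate could be left out.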
